A study of Homo sapiens with 6 samples.

Results

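The TRIM (tripartite motif) genes code for a family of proteins that share a RING finger, B-box zinc fingers and a coiled coil, in that order, and most of them are E3 ubiquitin ligases. An E3 ligase brings a ubiquitin-loaded E2 enzyme to a target protein, so that the target is marked for degradation or for assembly into a signalling complex. The coiled coil pairs the proteins up, and the domain at the far end, often a PRY-SPRY domain, picks the target. Many TRIM proteins act in innate immunity, where they restrict viruses or ubiquitinate the sensors RIG-I, MDA5, MAVS and STING, and some of their genes are themselves induced by interferon. In liver cells the known roles of this family include antiviral defence and the control of chromatin, among others.

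Members were all genes of the count table with the biotype protein_coding and a name made of TRIM, a number and at most 1 further letter. This gave 73 of 58735 genes. All 73 have the same position in the GENCODE 29 annotation as in the table (GRCh38). Of these, 49 had enough reads to be tested, and 24 did not pass the filter on low counts.

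Polyadenylated RNA was sequenced from 6 libraries of HepaRG cells, an established human line of liver progenitors. In DMSO its cells become hepatocyte-like or biliary-like. In both groups the medium for differentiation held 1.8% DMSO, siRNA was applied for 48 h, and 800 µM oleic acid with 400 µM palmitic acid followed for 24 h. The libraries carry the labels PTPF (n = 3) and STATF (n = 3). The labels do not spell these out, the protocols name siRNAs against PTPRD and STAT3, and a control siRNA was not analysed here. All values come from 1 cell line. Nothing in the labels ties the replicates to separate cultures, and the p-values therefore reflect only the variation among these libraries, which may be technical.

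Library totals were 33225627 to 40796767 counts. STAT3 stood at 443 ± 12.2 CPM in PTPF-labelled libraries and at 119.6 ± 10.6 CPM in STATF-labelled libraries (CPM, counts relative to the TMM-scaled library total; SD, n = 3 each). PTPRD averaged 11.5 ± 1.37 CPM in the PTPF-labelled libraries and 11.5 ± 0.603 CPM in the STATF-labelled ones (SD, n = 3 each). Since PTPRD did not separate the groups, every direction here is between libraries by label. Of 17844 genes tested with edgeR's quasi-likelihood test, 3863 (21.6%) passed an adjusted p of 0.05, 11.6% lower and 10.1% higher in PTPF-labelled libraries. The 5 hepatocyte markers examined (ALB, APOA1, TTR, CYP3A4, HNF4A) summed to 14880 to 17513 CPM in PTPF-labelled and 19507 to 20870 CPM in STATF-labelled libraries, and 3 of them were lower. The 4 biliary markers (KRT7, KRT19, EPCAM, SOX9) summed to 86.1 to 97.7 CPM in PTPF-labelled and 124.9 to 143.8 CPM in STATF-labelled libraries, with 2 lower and EPCAM at 0 counts. The immune markers PTPRC, CD68 and CD3E together reached at most 0.191 CPM in PTPF-labelled and 0.213 CPM in STATF-labelled libraries, with CD3E at 0. The part of the marker shifts in the results below was not tested, and in bulk RNA fewer cells of a type and less RNA per cell cannot be told apart.

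TRIM genes that changed were mostly lower in the libraries labelled PTPF. Of 49 members tested, 12 were lower and 2 were higher, against a background of 11.6% lower and 10.1% higher over all genes tested. As a share of the members tested, 24.5% were lower and 4.08% higher. The median log2 fold change (PTPF over STATF) was -0.07 over the members tested and 0.00 over all genes tested. The lower members were TRIM69, TRIM21, TRIM56, TRIM22, TRIM16L, TRIM25, TRIM26, TRIM16, TRIM31, TRIM14, TRIM54 and TRIM5. The higher members were TRIM27 and TRIM8. Changes were modest: 4 of the 14 called members differed by more than 1.5-fold and 0 by more than 2-fold. Over all genes tested, 5.32% passed with a change over 1.5-fold and 2.11% with a change over 2-fold.

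Interferon-inducible promoters often carry an interferon-stimulated response element (ISRE), to which IRF factors bind. The RefSeq promoter table (GRCh38.p14, 250 bases before to 50 after each start site) matched 56 of the 73 members. The ISRE core was searched on both strands as a pair of GAAA words with any 2 bases between them, or TTTC words on the other strand. It was found in 3.17% of 22179 promoters of protein-coding genes and 3.58% of all 35093 promoters. Among the lower members with a promoter entry, 6 of 10 held it. Among the tested members that were not called, 2 of 26 held it, and among the untested members 2 of 20. Over all protein-coding genes tested with an entry, the core was present in 8.23% of those lower, 3.66% of those higher and 3.55% of those not called. The matches of the lower members are shown, with the core in capitals, since this motif is the one known from interferon-responsive genes. Each is read 5′ to 3′ along the gene.
TRIM69: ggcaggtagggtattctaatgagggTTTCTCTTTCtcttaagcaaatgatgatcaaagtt
TRIM26: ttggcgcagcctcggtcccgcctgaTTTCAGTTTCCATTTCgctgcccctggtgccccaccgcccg
TRIM14: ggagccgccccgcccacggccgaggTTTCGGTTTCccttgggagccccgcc
TRIM5: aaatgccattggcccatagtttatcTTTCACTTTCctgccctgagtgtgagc
TRIM16: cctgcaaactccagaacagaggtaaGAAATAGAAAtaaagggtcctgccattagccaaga
TRIM21: GAAACTGAAAGTGAAA
The TRIM69 stretch is chr15:44736441-44736500 on the plus strand, and its core begins 62 bases before the start site. The others lie on the minus strand, at chr6:30213560-30213625 for TRIM26, chr9:98119223-98119273 for TRIM14, chr11:5685075-5685126 for TRIM5 and chr17:15682997-15683056 for TRIM16. TRIM26 holds 2 overlapping copies of the core, as does TRIM21, whose 16-base site at chr11:4393670-4393685 lies inside the transcript, 17 bases after the start site. In TRIM14 and TRIM5 the core begins 26 and 27 bases before the start site. The sites of TRIM69, TRIM5 and TRIM16 lie inside the span of their genes in GENCODE 29, so the RefSeq start sites used for them are internal.

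The not-called members with the core were TRIM44 and TRIM2, and their matches read as follows.
TRIM44: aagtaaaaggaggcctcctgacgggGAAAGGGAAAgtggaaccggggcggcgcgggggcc
TRIM2: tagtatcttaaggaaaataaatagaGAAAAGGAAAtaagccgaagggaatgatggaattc
These lie on the plus strand at chr11:35662715-35662774 and chr4:153151921-153151980. TRIM44 averaged 127 ± 4.14 CPM in PTPF-labelled and 129.6 ± 4.09 CPM in STATF-labelled libraries, and TRIM2 41.8 ± 1.18 and 41.4 ± 0.721 CPM in the PTPF-labelled and STATF-labelled libraries (SD, n = 3 each). Of the other lower members with an entry, TRIM56, TRIM25, TRIM31 and TRIM54 had no match in this window. TRIM22, TRIM16L, TRIM27 and TRIM8 had no promoter entry. The STAT dimer motif TTCNNNGAA, which reads the same on both strands, was found in 6.79% of protein-coding promoters and, among the lower members, in that of TRIM16 alone. No site was tested for binding, and a match is a description of the letters.

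**Figure D1:**
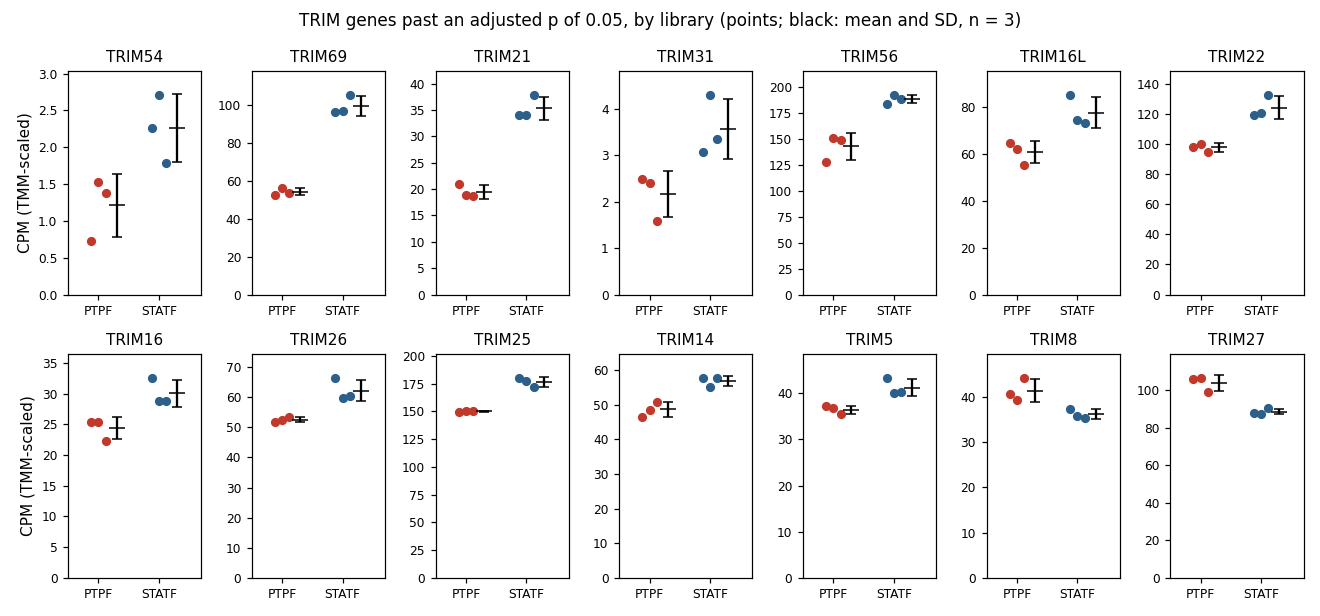
TMM-scaled CPM (y axis, from 0) of the 14 TRIM genes past an adjusted p of 0.05 in each library, PTPF left and STATF right. Points are libraries and black bars the mean and SD (n = 3). In all 14 panels the points of the groups do not overlap, and 12 of the 14 genes sit lower in PTPF-labelled libraries. The genes were picked for passing the test, which favours such separation, and over all genes tested 35.7% had groups that do not overlap.

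TRIM69 and TRIM21, ligases of the PRY-SPRY class with antiviral roles, had the smallest adjusted p-values in the family. TRIM69, which restricts vesicular stomatitis virus, had 52.6, 56.3 and 53.8 CPM in PTPF-labelled libraries, against 96.3, 96.9 and 106 CPM in STATF-labelled libraries. All PTPF-labelled libraries were far below all STATF-labelled ones, and the log2 fold change was -0.88 with an SE of 0.0574 (edgeR adjusted p = 4.23e-12). TRIM69 lies on chromosome 15 from 44728988 to 44767829, and no base of its exons is shared with another annotated gene. TRIM21, a cytosolic antibody receptor that sends antibody-coated viruses to the proteasome and is known to clinicians as the Ro52 autoantigen, had 21.0, 18.8 and 18.7 CPM in PTPF-labelled libraries. In STATF-labelled libraries it had 34.0, 34.0 and 37.9 CPM, so the groups were well apart. Its log2 fold change was -0.86 (SE 0.0713, edgeR adjusted p = 4.98e-10). TRIM21 lies on chromosome 11 from 4384897 to 4393696 and shares no exon base either.

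TRIM56, TRIM25, TRIM14 and TRIM26 were lower too, each by less than TRIM69 and TRIM21. TRIM56, which promotes signalling through STING and restricts several RNA viruses, had 128, 151 and 149 CPM in PTPF-labelled libraries, against 184, 192 and 189 CPM in STATF-labelled libraries. PTPF replicate 1 was the lowest of the 6, and the groups did not overlap (log2 fold change -0.40, SE 0.0608, edgeR adjusted p = 1.42e-05). TRIM25, the ligase known for ubiquitinating the RNA sensor RIG-I, had 150.0, 150.2 and 151 CPM in PTPF-labelled libraries and 180.2, 177 and 172 CPM in STATF-labelled libraries. The PTPF-labelled libraries were close to each other and all below the others, at a log2 fold change of -0.23 with an SE of 0.0528 (edgeR adjusted p = 0.00184). TRIM25 shares 8.80% of its exon bases with other genes, of which C17orf67 had the most counts, 431 in all 6 libraries together. TRIM14 lacks a RING finger and serves as an adaptor at MAVS on mitochondria. It had 46.5, 48.6 and 50.9 CPM in PTPF-labelled libraries and 57.8, 55.1 and 57.8 CPM in STATF-labelled libraries. It was lower in all PTPF-labelled libraries (log2 fold change -0.22, SE 0.0580, edgeR adjusted p = 0.00528), and 7.72% of its exon bases are shared with NANS on the opposite strand, a gene that was higher (log2 fold change 0.35). TRIM26, a ligase linked to the control of IRF3, had 51.7, 52.6 and 53.4 CPM in PTPF-labelled libraries and 66.4, 59.8 and 60.5 CPM in STATF-labelled libraries. Its groups did not overlap either (log2 fold change -0.24, edgeR adjusted p = 0.00276).

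TRIM31, which ubiquitinates MAVS and is best known from the intestine, was low in these cells. It had 2.49, 2.40 and 1.59 CPM in PTPF-labelled libraries, against 3.07, 4.30 and 3.34 CPM in STATF-labelled libraries (log2 fold change -0.72, SE 0.184, edgeR adjusted p = 0.00479). STATF replicate 2 was the highest, and without it the edgeR adjusted p was 0.0578. Its exons overlap those of the antisense gene TRIM31-AS1 over 4.92% of their bases, and that gene had 59 counts in all. TRIM65, a ligase of the RNA sensor MDA5, had 12.5, 12.2 and 12.7 CPM in PTPF-labelled libraries and 10.5, 11.3 and 10.9 CPM in STATF-labelled libraries. Its groups did not overlap, but it did not pass the test (log2 fold change 0.19, edgeR adjusted p = 0.115). TRIM38, which acts on Toll-like receptor and RNA sensor signalling, averaged 88.8 ± 4.62 CPM in PTPF-labelled and 89.6 ± 4.33 CPM in STATF-labelled libraries (SD, n = 3 each), with a 95% interval of the log2 fold change from -0.13 to 0.11. TRIM4, another regulator of RIG-I, averaged 59.2 ± 0.716 CPM in PTPF-labelled and 58.2 ± 1.60 CPM in STATF-labelled libraries (SD, n = 3 each), with an interval from -0.09 to 0.14.

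A block on chromosome 11 holds TRIM6, TRIM34, TRIM5 and TRIM22, neighbouring genes of related sequence that include the best-known retroviral restriction factors. TRIM22, which limits transcription of human immunodeficiency virus, had 98.1, 100.3 and 94.9 CPM in PTPF-labelled libraries, against 119, 121 and 133 CPM in STATF-labelled libraries. It was lower in all of the PTPF-labelled libraries (log2 fold change -0.35, SE 0.0564, edgeR adjusted p = 3.9e-05). TRIM22 shares 10.7% of its exon bases with the olfactory receptor gene OR56B1, which had 1 count in all 6 libraries together. TRIM5, which recognises incoming retroviral capsids, had 37.1, 36.7 and 35.5 CPM in PTPF-labelled libraries and 43.3, 40.0 and 40.3 CPM in STATF-labelled libraries. The groups were close without overlapping (log2 fold change -0.18, SE 0.0609, edgeR adjusted p = 0.038). The call of TRIM5 did not hold with DESeq2 (adjusted p = 0.0522), with upper-quartile scaling or without the filter. It held without PTPF replicate 1, but leaving out any other library gave edgeR adjusted p-values of 0.0648 (STATF replicate 3), 0.0674 (STATF replicate 2), 0.0682 (PTPF replicate 2), 0.134 (PTPF replicate 3) and 0.2 (STATF replicate 1).

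The neighbour TRIM6, which makes free ubiquitin chains that activate IKBKE, stood at 3.08 ± 0.464 CPM in PTPF-labelled and 3.36 ± 0.340 CPM in STATF-labelled libraries (SD, n = 3 each) and was not called. TRIM34 had 0, 2 and 0 counts in PTPF-labelled and 1, 0 and 4 counts in STATF-labelled libraries. Of its exon bases 83.0% also belong to the annotated readthrough gene TRIM6-TRIM34, as do 29.3% of those of TRIM6, so the level of TRIM34 is uncertain. TRIM21 and TRIM68 lie farther along the same chromosome arm, and TRIM68, with 12.2 ± 0.970 CPM in PTPF-labelled and 13.1 ± 0.443 CPM in STATF-labelled libraries (SD, n = 3 each), was not called. Of the 8 members on chromosome 6, TRIM26 and TRIM31 were lower and TRIM27 was higher. TRIM10, TRIM15, TRIM38 and TRIM39 were not called there, and TRIM40 was not tested.

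TRIM16 and TRIM16L, near-copies on chromosome 17 that lack a RING finger, were both lower. TRIM16 is known for the autophagy of damaged lysosomes through galectin-3. It had 25.5, 25.5 and 22.3 CPM in PTPF-labelled libraries and 32.6, 28.8 and 28.8 CPM in STATF-labelled libraries, groups that did not overlap (log2 fold change -0.30, SE 0.0726, edgeR adjusted p = 0.00311). TRIM16L had 64.6, 62.1 and 55.4 CPM in PTPF-labelled libraries and 85.3, 74.6 and 73.1 CPM in STATF-labelled libraries. It too was lower in all PTPF-labelled libraries (log2 fold change -0.36, SE 0.0660, edgeR adjusted p = 0.000224). Of the 50-base stretches in their annotated transcripts, 42.0% of those of TRIM16 and 42.6% of those of TRIM16L also occur in another gene, mostly each other. The way the authors treated reads with several matches is not given in the sources used here, so the split of reads between this pair is uncertain.

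TRIM54, a microtubule-associated ligase of striated muscle, was lower at a very low level, with 0.728, 1.53 and 1.38 CPM in PTPF-labelled libraries and 2.27, 2.71 and 1.79 CPM in STATF-labelled libraries. These values rest on 24 to 56 counts per PTPF-labelled library and 67 to 113 per STATF-labelled library. The log2 fold change was -0.89 (SE 0.239, edgeR adjusted p = 0.00745), and the adjusted p was 0.0576 without STATF replicate 2. TRIM54 shares 1.45% of its exon bases with UCN on the opposite strand, which had 1085 counts in all. Of its muscle relatives, TRIM55 was not called and TRIM63 had 4 to 9 counts in PTPF-labelled and 10 to 12 counts in STATF-labelled libraries, too few to be tested.

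TRIM27, a ligase that acts on endosomal sorting and also represses transcription, had 106, 107 and 99.1 CPM in PTPF-labelled libraries, against 88.2, 87.5 and 90.4 CPM in STATF-labelled libraries. All PTPF-labelled libraries were above all others, at a log2 fold change of 0.23 with an SE of 0.0543 (edgeR adjusted p = 0.0026). TRIM8, a ligase that feeds into NF-kB signalling, had 40.7, 39.2 and 44.1 CPM in PTPF-labelled libraries and 37.4, 35.7 and 35.3 CPM in STATF-labelled libraries. PTPF replicate 3 was the highest (log2 fold change 0.19, SE 0.0627, edgeR adjusted p = 0.0264). The adjusted p of TRIM8 was 0.166 without PTPF replicate 3, 0.101 without STATF replicate 2, 0.102 without STATF replicate 3, and 0.162 with library totals as the only scaling.

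**Figure D2:**
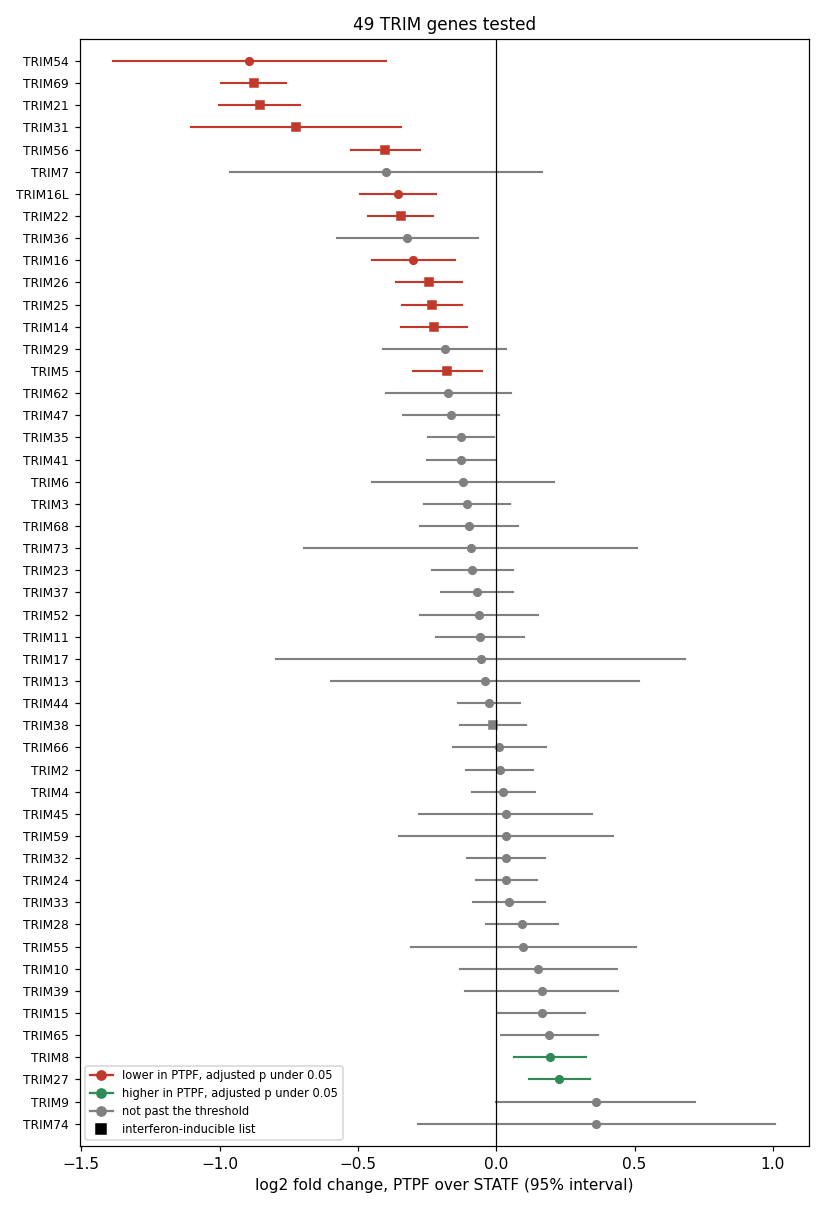
Log2 fold change of PTPF over STATF (x axis) with its 95% interval for each of the 49 TRIM genes tested, sorted from lowest at the top. Red marks the 12 lower genes, green the 2 higher genes and grey the 35 genes not past the threshold, and squares mark the interferon-inducible list, of which only TRIM38 is grey.

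The members were also grouped by what is known of their induction by interferon. A list of 11 TRIM genes known as interferon-inducible from general knowledge (TRIM5, TRIM14, TRIM21, TRIM22, TRIM25, TRIM26, TRIM31, TRIM34, TRIM38, TRIM56 and TRIM69) had 10 members tested, of which 9 were lower and 0 higher. Their median log2 fold change was -0.30. Of the 39 other members tested, 3 were lower (7.69%) and 2 higher (5.13%), with a median of -0.04. Both shares were below those of all genes tested (11.6% and 10.1%), so the larger share of lower members lay in the list. The list was drawn up with earlier results of these data known, and its difference from the other members was not tested. Summed over the 11 genes, the level was 674.1, 711 and 693.7 CPM in PTPF-labelled libraries and 868.8, 871.7 and 891.3 CPM in STATF-labelled libraries. The 62 other members summed to 1231, 1202 and 1228 CPM in PTPF-labelled and 1239.9, 1219 and 1199.5 CPM in STATF-labelled libraries. The first sum in PTPF-labelled libraries was thus 79.0% of that in STATF-labelled libraries and its ranges did not overlap, while the second was 100.1% and its ranges did. The whole family summed to 1913 ± 8.27 CPM in PTPF-labelled and 2097 ± 10.2 CPM in STATF-labelled libraries (SD, n = 3 each).

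By domain class, 0 to 6 members per class were lower. The PRY-SPRY class was counted here without the genes that lack a RING finger. Of its 22 members tested 6 were lower (27.3%) and 1 higher (4.55%), and the median log2 fold change was -0.12. These shares were near those of all members tested, 24.5% and 4.08%, while all genes tested had 11.6% and 10.1%. Of 6 TRIM genes without a RING finger 3 were lower (50%). These 3, TRIM14, TRIM16 and TRIM16L, also end in a PRY-SPRY domain, so the PRY-SPRY shares above leave out lower genes. Of 6 with no named end domain 2 were lower (33.3%) and 1 higher (16.7%). The classes with a PHD finger and bromodomain (TRIM24, TRIM28, TRIM33) and with NHL repeats (TRIM2, TRIM3, TRIM32) had 0 of 3 called each. In those 6 genes edgeR gave 0 with an unadjusted p under 0.05. These shares rest on few genes, and the classes were not tested against each other.

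Levels were compared per kilobase of gene length, over all 6 libraries. TRIM28, the corepressor that KRAB zinc finger proteins use to silence transposons, was the most expressed member, with 59.3 to 70.3 CPM per kilobase over the libraries. The order below it differed between the groups. In PTPF-labelled libraries TRIM22 and TRIM25 followed with means of 16.2 and 15.8 CPM per kilobase, and their ranges overlapped. TRIM16L (14.0), TRIM27 (13.0), TRIM35 (12.9) and TRIM56 (12.8 CPM per kilobase) came next, with ranges that overlapped each other and lay below those of TRIM22 and TRIM25, and TRIM21 stood lower at 10.1 CPM per kilobase. In STATF-labelled libraries TRIM22 had 19.8 to 22.1 CPM per kilobase, above every library of TRIM25, TRIM21 and TRIM16L, whose means were 18.6, 18.3 and 17.9 CPM per kilobase and whose ranges overlapped. TRIM28 itself had 284, 244 and 280.5 CPM in PTPF-labelled libraries and 270.2, 248 and 239 CPM in STATF-labelled libraries, groups that overlapped (log2 fold change 0.09, 95% interval -0.04 to 0.22, edgeR adjusted p = 0.332). Without PTPF replicate 2, its lowest PTPF-labelled library, the adjusted p was 0.0433. TRIM28 took 13.0% of all TRIM counts, and in all 45 members averaged more than 1 CPM.

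**Figure D3:**
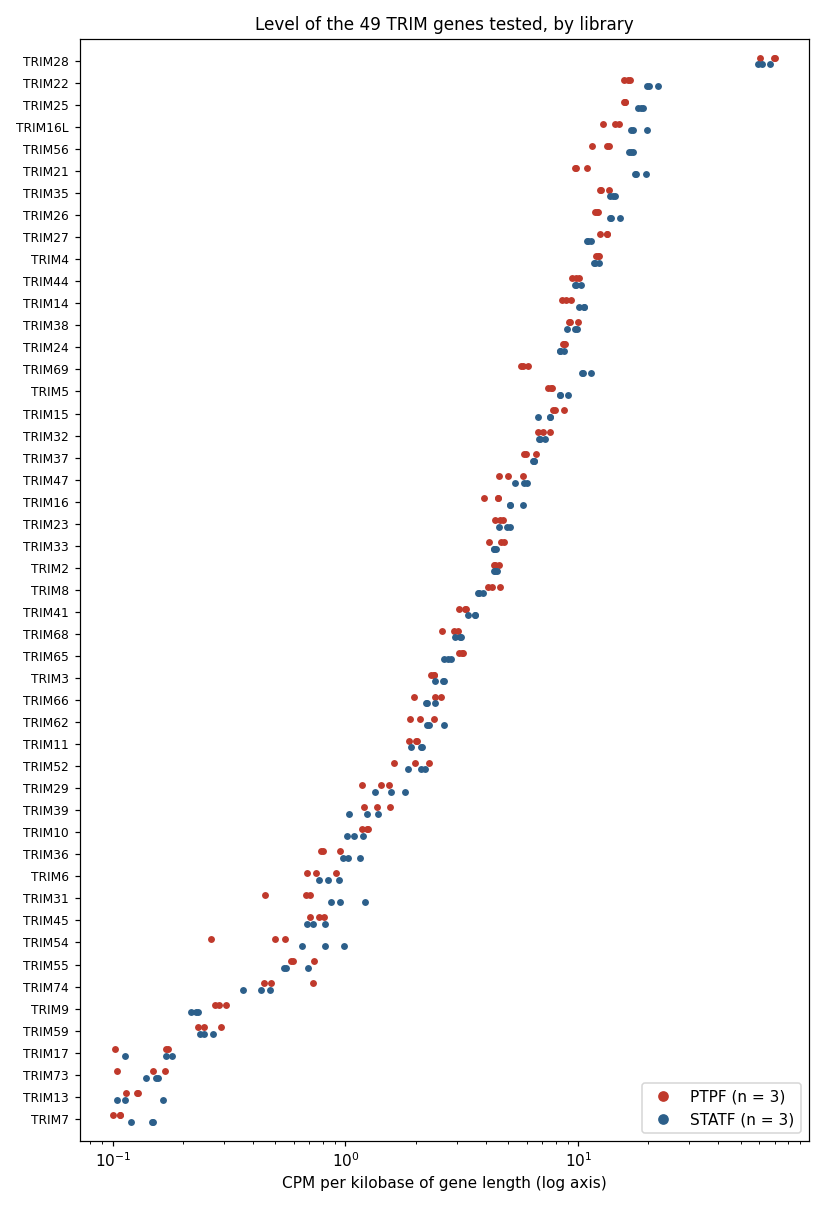
CPM per kilobase of gene length (log x axis) of the 49 TRIM genes tested in each library, sorted by mean level with the highest at the top. Red points are PTPF-labelled and blue points STATF-labelled libraries (n = 3 each). TRIM28 stands above the rest at 59.3 to 70.3, and TRIM69 and TRIM21 show the groups apart.

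None of the 3 members of the class with a PHD finger and bromodomain was called. TRIM66, counted with the genes without a RING finger, has a bromodomain too and was not called (log2 fold change 0.01, edgeR adjusted p = 0.952). TRIM24, a bromodomain coregulator of nuclear receptors, averaged 80.2 ± 0.986 CPM in PTPF-labelled and 78.2 ± 1.71 CPM in STATF-labelled libraries (SD, n = 3 each), with a 95% interval of its log2 fold change from -0.07 to 0.15. TRIM33, which acts with SMAD proteins, averaged 43.3 ± 3.40 CPM in PTPF-labelled and 41.9 ± 0.587 CPM in STATF-labelled libraries (SD, n = 3 each), with an interval from -0.08 to 0.18. TRIM32 and TRIM37, which are mutated in muscular dystrophy and in mulibrey nanism, had intervals from -0.10 to 0.18 and from -0.20 to 0.06. For 29 of the 35 members not called, the 95% interval lay within 1.5-fold in both directions. In the other 6, the low-level genes TRIM7, TRIM9, TRIM13, TRIM17, TRIM73 and TRIM74, the interval reached past 1.5-fold in at least 1 direction. TRIM73 and TRIM74 also share 38.2% and 91.7% of their 50-base stretches with other genes and are uncertain.

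The members nearest to the threshold on its outer side were TRIM36, TRIM65 and TRIM35. TRIM36 had 5.80, 4.91 and 4.78 CPM in PTPF-labelled libraries and 5.97, 7.08 and 6.25 CPM in STATF-labelled libraries (edgeR adjusted p = 0.0676). TRIM35 averaged 54.9 ± 2.67 CPM in PTPF-labelled and 60.0 ± 1.52 CPM in STATF-labelled libraries (SD, n = 3 each; edgeR adjusted p = 0.124). Of the 49 members tested, the groups did not overlap in 17 with PTPF lower (34.7%) and in 5 with PTPF higher (10.2%). Over all genes tested these shares were 18.4% and 17.3%.

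Of the 24 members not tested, 12 had 0 counts in every library. They are TRIM43, TRIM43B, TRIM48, TRIM49B, TRIM49C, TRIM51, TRIM60, TRIM61, TRIM64, TRIM64B, TRIM64C and TRIM77, mostly recent duplicates whose reads can match several copies. Reading 0 leaves room for as many as 3 counts, that is 0.0720 to 0.0919 CPM by library. This limit is for counting error alone, because reads copied by PCR and carrying no molecular identifier are not independent molecules. The other 12 had between 1 and 54 counts over the 6 libraries. Among them TRIM71, a stem-cell regulator of let-7, had 0, 2 and 1 counts in PTPF-labelled and 7, 4 and 1 counts in STATF-labelled libraries, and TRIM72, a membrane-repair protein of muscle, had 0 to 4 counts.

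Relatives of the family under other names were measured alongside. PML, the organiser of nuclear bodies also called TRIM19, had 61.3, 61.7 and 64.9 CPM in PTPF-labelled libraries and 81.7, 78.2 and 73.2 CPM in STATF-labelled libraries (log2 fold change -0.31, SE 0.0574, edgeR adjusted p = 0.000179). It was the 1 gene called of 5 tested in that list (20%, against 21.6% of all genes), beside MID1, MID2, MEFV and TRIML1. The nuclear body protein SP100 was also lower (log2 fold change -0.40), and SP110 was lower by more (-0.64), with 20.9% of its exon bases shared with other genes. Among 14 partners of nuclear TRIM proteins, 3 were lower (21.4%, against 11.6% of all genes) and 4 higher (28.6%, against 10.1%). The higher ones were RARA (0.69), which is fused to PML in promyelocytic leukaemia, and the heterochromatin proteins CBX3 (0.45), CBX1 (0.29) and CBX5 (0.19), which read the mark that TRIM28 complexes lay down.

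Butyrophilins are membrane proteins, most of which carry the B30.2 domain also found in the PRY-SPRY members, though BTN3A2 lacks it. All 5 tested of 6 (BTN2A1, BTN2A2, BTN3A1, BTN3A2 and BTN3A3) were lower, against 11.6% of all genes. Their median log2 fold change was -0.54. BTN3A1, the phosphoantigen sensor seen by gamma-delta T cells, had 38.9, 41.5 and 39.4 CPM in PTPF-labelled libraries and 59.2, 58.1 and 58.5 CPM in STATF-labelled libraries (edgeR adjusted p = 3.13e-08). The BTN3A genes are close relatives, so reads may be split among them.

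The sensing pathway on which several TRIM ligases act was lower in part. Of 23 genes tested in the RIG-I and DNA sensing list 9 were lower (39.1%) and 3 higher (13.0%), and the median log2 fold change was -0.17. The shares over all genes tested were 11.6% lower and 10.1% higher. DDX58, which codes for the TRIM25 substrate RIG-I, had 11.6, 13.5 and 13.7 CPM in PTPF-labelled libraries and 25.1, 26.1 and 27.4 CPM in STATF-labelled libraries (log2 fold change -1.02, SE 0.0781, edgeR adjusted p = 1.02e-10). IFIH1, which codes for the TRIM65 substrate MDA5, was also lower (-1.02, edgeR adjusted p = 2.78e-12). TMEM173, the gene of the TRIM56 partner STING, went the other way, with 11.4, 11.8 and 14.3 CPM in PTPF-labelled libraries and 5.78, 6.51 and 5.80 CPM in STATF-labelled libraries (1.05, edgeR adjusted p = 1.9e-08). MAVS, the adaptor that TRIM14 and TRIM31 bind, averaged 149.7 ± 15.2 CPM in PTPF-labelled and 160.3 ± 9.45 CPM in STATF-labelled libraries (SD, n = 3 each) and was not called.

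Of 17 interferon signalling genes tested, 8 were lower (47.1%, against 11.6% of all genes) and 3 higher (17.6%, against 10.1%). The median log2 fold change was -0.22. IRF1 (-1.64) and IRF9 (-1.63) were lower, but both share exon bases with other genes (48.4% of those of IRF9). IFNGR1, SOCS1 and IFNAR1 were the higher genes of that list, at log2 fold changes of 0.84, 0.87 and 0.20. Of 35 ubiquitin E1 and E2 genes tested, 5 were lower (14.3%, against 11.6% of all genes) and 8 higher (22.9%, against 10.1%). These enzymes act upstream of any RING ligase, and their median log2 fold change was 0.00. DESeq2 gave 4 lower and 5 higher, library totals as the only scaling gave 9 and 4, and leaving out PTPF replicate 1, STATF replicate 1 or STATF replicate 2 left 5 higher (3 lower without either of these STATF libraries). UBE2L6 (-0.58) and UBA7 (-0.50), the E2 and E1 of the ubiquitin-like protein ISG15, had the largest reductions of this list. UBE2D1 (0.47) and UBE2D3 (0.33), E2 enzymes with which many TRIM proteins work in test-tube assays, were higher. UBE2D2 (-0.11) and UBE2D4 (0.02) were not called, and neither were UBE2E1 (0.002), UBE2E2 (-0.14), UBE2E3 (-0.16) and UBE2N (0.10).

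**Figure D4:**
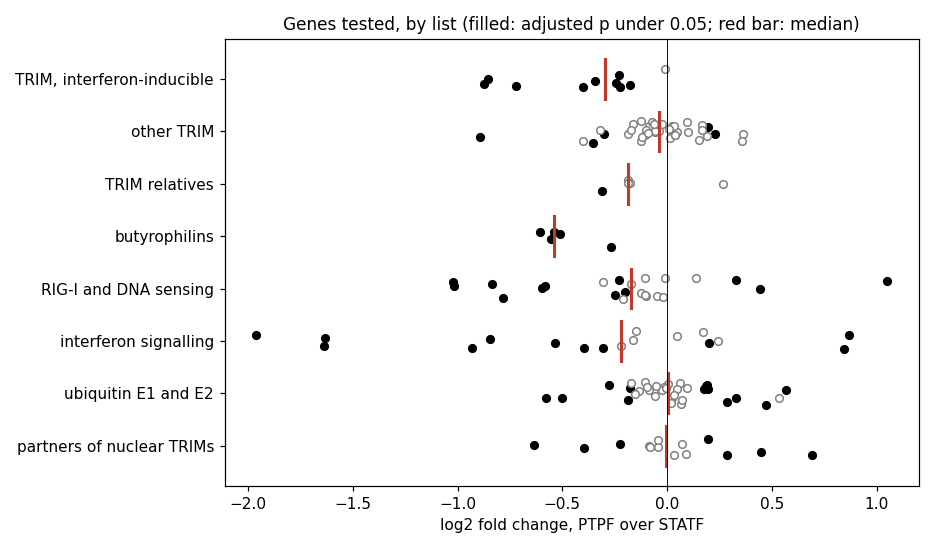
Log2 fold change of PTPF over STATF (x axis) of every gene tested in 8 gene lists (rows). Filled points passed an adjusted p of 0.05, open points did not, and red bars are medians. The interferon-inducible TRIM genes have a median of -0.30 and the other TRIM genes of -0.04.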

How the data were processed

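The submitters' processing notes list CASAVA 1.8, HISAT2 2.0.5, featureCounts 1.5.0-p3 and GRCh38. The sources used here give no annotation release, strand setting or handling of reads with several matches. What the authors deposited is 1 table of raw read counts per gene for 6 libraries, without normalization. It also holds a gene length in bases, an other unit, used here for levels per kilobase. Without a strand setting, reads of overlapping genes cannot be told apart.

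Low genes were removed with filterByExpr, and the rest were scaled by TMM. The test was edgeR 4.0.16's quasi-likelihood test (robust, with group as the sole term; R 4.3.3). P-values were adjusted by Benjamini-Hochberg over all 17844 genes and called at 0.05. Fold changes are PTPF over STATF. Alternatives used DESeq2 1.42.0, limma-voom (limma 3.58.1), other scalings and filters, a replicate block and each library left out. Only the edgeR step was tested on simulated counts, with the same dispersion for every gene. Most called TRIM genes changed by less than the smallest fold simulated, so that test does not cover them. Exon sharing came from GENCODE 29 (bedtools 2.31.1), and shared stretches of 50 bases from its transcripts. Promoter sequences are RefSeq's (GRCh38.p14).

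The members and lists were chosen with earlier results of these data known. The rule for named genes takes members past the threshold, the 3 nearest outside it and called genes of the other lists, and further genes were named after their values were seen. Libraries of the same group differed beyond sampling noise, with a chi-square of 4.35 to 12.2 for each degree of freedom. A gene of the interferon signalling list is not reported here by name.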

Additional observations from a re-analysis of the deposited data

How the results depend on the processing

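Of the 14 called members, 10 (TRIM14, TRIM16, TRIM16L, TRIM21, TRIM22, TRIM25, TRIM26, TRIM27, TRIM56 and TRIM69) passed in all 15 alternatives run on single genes, and 4 (TRIM5, TRIM8, TRIM31 and TRIM54) lost the call in at least 1. No called member reversed its direction in these. Leaving out each library in turn gave 9 to 14 lower and 1 to 3 higher members, and 2830 to 3808 genes over all. With library totals as the only scaling, 16 members were lower and 1 higher, the members' median log2 fold change was -0.13, and the summed family stood at 87.3% of its level in STATF-labelled libraries (91.8% with upper-quartile scaling, 91.2% with TMM). That scaling moved the median of all genes to -0.06, and 28.1% of its calls were higher, against 46.6% with TMM. At an adjusted p of 0.01, 2551 genes passed and 1 member was higher. Leaving out members that share exon bases with another gene left 4 lower and 1 higher, by construction with fewer genes counted. Of the 73 members 28 share exon bases, and of the 14 called members 9 do, so most calls lie in genes with shared bases. The 73 include 24 untested members, which could not be called, so these shares are not on a like base. Whether members with and without shared bases differ was not tested. Leaving out members with over 20% of their 50-base stretches in another gene, an alternative chosen after seeing the data, left 10 lower and 2 higher. DESeq2 called 11 lower and 2 higher members, and limma-voom 12 and 2. The replicate block gave 4145 genes, with 12 lower and 2 higher members. The deviations of same-numbered libraries from their group means correlated weakly (r of 0.0347, 0.0578 and 0.000769). PTPF replicates 1 and 2 correlated best with their own number, and PTPF replicate 3 with STATF replicate 2 (r of 0.0179). With 3 libraries per group, these values cannot show whether same-numbered libraries share a batch. Depth limits the 6 low-level members not called whose 95% interval reached past 1.5-fold. The causes of these shifts were not tested.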
